A study of Mus musculus with 8 samples.

Results

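The opening of the liver's response to growth hormone (GH) was read in introns and in gene bodies by setting the 2 libraries of the Hypox+GH 30 min group against the 2 libraries of the Hypox group. The genes described are those with a mean gene body value of 0.5 FPKM (reads normalised to exon length and to mapped reads) or more in either group, which were 10893 of the 24197 genes in the deposited table. Of these, 10216 reached that value in both groups, 244 only at 30 min and 433 only in Hypox. Intronic reads sufficed for a test in 9644 of the 10893 genes, gene body reads in 10505, and both in 9638. In the bands on either side of the threshold, 55 genes had a higher group mean of 0.50 to 0.51 FPKM and 66 genes of 0.49 to 0.50 FPKM, and none of them was called in introns. Both groups were male CD-1 (ICR) mice, 11 weeks old, hypophysectomized by the supplier at 7 weeks of age, which takes away the pituitary and with it the source of circulating GH and of the other pituitary hormones. The 30 min mice had received 1 intraperitoneal injection of recombinant rat GH, at a dose of 125 ng per g body weight. The Hypox mice were untreated according to the design text and vehicle-injected according to the treatment protocol, and the labels name no vehicle group killed at 30 min, so GH, injection, handling and time of day cannot be told apart. RNA of 8 individuals was pooled into 2 replicates per condition, so each library is a pool of livers and every p-value here measures the spread between pools. Livers taken 90 and 240 min after the same injection, again 2 pools per time, entered the same fits and are used here as later values.

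GH binds its receptor on hepatocytes and activates the kinase JAK2, which phosphorylates STAT5b, a transcription factor that enters the nucleus and binds near its target genes. Among the known targets are the feedback inhibitors of the SOCS family, which shut the receptor signal down, and Igf1, the hormone through which GH drives body growth. GH is also known to oppose insulin in the liver and to mobilise fat. Introns are removed from a transcript within minutes of its synthesis, so intronic reads in total RNA come largely from transcripts still being made, whereas gene body reads are dominated by the mature mRNA already present.

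STAT5 binds the palindrome TTCNNNGAA, which reads the same on both strands. RefSeq promoters (build GRCm38.p6, 250 bases before to 50 after the start) of 3 genes whose introns rose are shown because they hold it, with each match in capitals and the rest in lower case. The deposited table uses build mm9, so these coordinates cannot be set beside those given for genes elsewhere.
Cish, chr9:107296409-107296708, + strand: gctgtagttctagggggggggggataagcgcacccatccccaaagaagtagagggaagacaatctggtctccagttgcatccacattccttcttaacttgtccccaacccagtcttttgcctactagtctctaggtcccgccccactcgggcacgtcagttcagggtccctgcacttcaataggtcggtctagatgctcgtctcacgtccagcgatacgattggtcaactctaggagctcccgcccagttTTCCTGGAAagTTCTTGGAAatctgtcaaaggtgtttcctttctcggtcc
Prlr, chr15:10223656-10223955, + strand: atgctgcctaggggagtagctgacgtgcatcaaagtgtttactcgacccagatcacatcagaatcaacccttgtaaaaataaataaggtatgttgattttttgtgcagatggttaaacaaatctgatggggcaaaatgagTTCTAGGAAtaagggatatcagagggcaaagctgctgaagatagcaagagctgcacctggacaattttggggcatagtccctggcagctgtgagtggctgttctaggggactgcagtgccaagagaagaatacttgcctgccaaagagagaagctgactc
Keg1, chr19:12695540-12695839, + strand: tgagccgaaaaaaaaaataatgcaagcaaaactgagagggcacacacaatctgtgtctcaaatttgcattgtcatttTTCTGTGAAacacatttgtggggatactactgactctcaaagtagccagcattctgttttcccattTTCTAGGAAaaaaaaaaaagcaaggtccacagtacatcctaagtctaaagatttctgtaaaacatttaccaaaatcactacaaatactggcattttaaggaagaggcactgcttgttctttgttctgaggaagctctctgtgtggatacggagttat

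Cish has a match that begins at the start site itself and another 11 bases downstream, the second of 3 Prlr promoters in the table, the one shown, has a match 110 bases before its start and the other two have none, and Keg1 has matches 173 and 107 bases before its start. Of all 32851 promoters in the table, 2726 (8.30%) held the palindrome. Igf1, Onecut1, Acsl1, Adipor2 and Aacs, whose introns rose, had no match in any promoter checked. Matches were also found in Slc10a1, Rrn3 and Il31ra, whose introns rose, and in Icam1, Dbp, Per1 and Maff, whose introns fell. Bcl6, Igfals and Socs3, which were not called, held matches too. A match describes these letters and shows no binding. The same check over all genes whose introns rose or fell is void, because the table matched only 135 of the 170 and 97 of the 124 genes, under 80% of each.

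Whole reads per library were recovered from the deposited group means, and the libraries of a group are told apart as deeper and shallower, since their pool numbers are not known. Values are CPM, reads scaled to the mapped reads of a library and by a factor per library, and are given for the deeper library and then the shallower library of each group. The 30 min libraries held 27002584 and 20584956 mapped reads and the Hypox libraries 34452570 and 32802312. Over all 8 libraries, 25.1% to 26.6% of mapped reads fell in exons and 14.98% to 17.7% in introns. Defining hepatocyte genes such as Alb were abundant in every library, with the gene body levels of 9 markers summing to 24925 and 23950.5 CPM at 30 min, against 25357 and 26044 CPM in Hypox. The shallower 30 min library stood apart. Its ribosomal precursor Rn45s was at 21246 CPM, against 8850.2 CPM in the other 30 min library and 9798 and 6907 CPM in Hypox, and exonic reads of Lars2, a mitochondrial leucyl-tRNA synthetase gene, were at 2387 CPM, against 121 CPM and, in Hypox, 7.39 and 7.14 CPM. It also held 46.5 CPM in introns of Il31ra, against 3.51 CPM in the deeper 30 min library and 0.279 and 0.0630 CPM in Hypox. The part of this library in the results was not tested, and counts without it are given for the main results. Per the labels, 1 Hypox pool carries another prefix in its sample name than the other 7 pools, and which Hypox library that is cannot be told.

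Introns gave many more calls than gene bodies at 30 min. A gene is called higher or lower where limma's adjusted p is under 0.05 (Benjamini-Hochberg over all genes tested, two-sided, log2(CPM + 0.1), all 8 libraries in the fit), and each ± gives the standard error from limma. Of 12271 genes tested in introns, 170 (1.39%) were higher and 124 (1.01%) lower at 30 min than in Hypox. Of 13170 genes tested in the gene body, 7 (0.0532%) were higher and 2 (0.0152%) lower. Among genes at 0.5 FPKM or more, introns called 160 higher and 115 lower, and the gene body called the same 7 and 2. Either group could bring a gene in, so Myc, Ces2b, Socs2, Cish and Nrep entered through their 30 min value alone. Their Hypox gene body means were 0.400, 0.0475, 0.463, 0.438 and 0.449 FPKM. Marco, called lower in introns, entered through Hypox alone, with a gene body mean of 0.375 FPKM at 30 min. Each of the 170 and 124 genes had both 30 min libraries beyond both Hypox libraries, as had 19.7% and 22.7% of all genes tested in introns in the upward and downward direction. At an unadjusted p under 0.05 introns gave 771 higher (6.28%) and 900 lower (7.33%) genes and gene bodies 414 (3.14%) and 511 (3.88%). A 2-fold or larger change was seen in 128 of the 170 higher and 81 of the 124 lower genes.

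**Figure D1:**
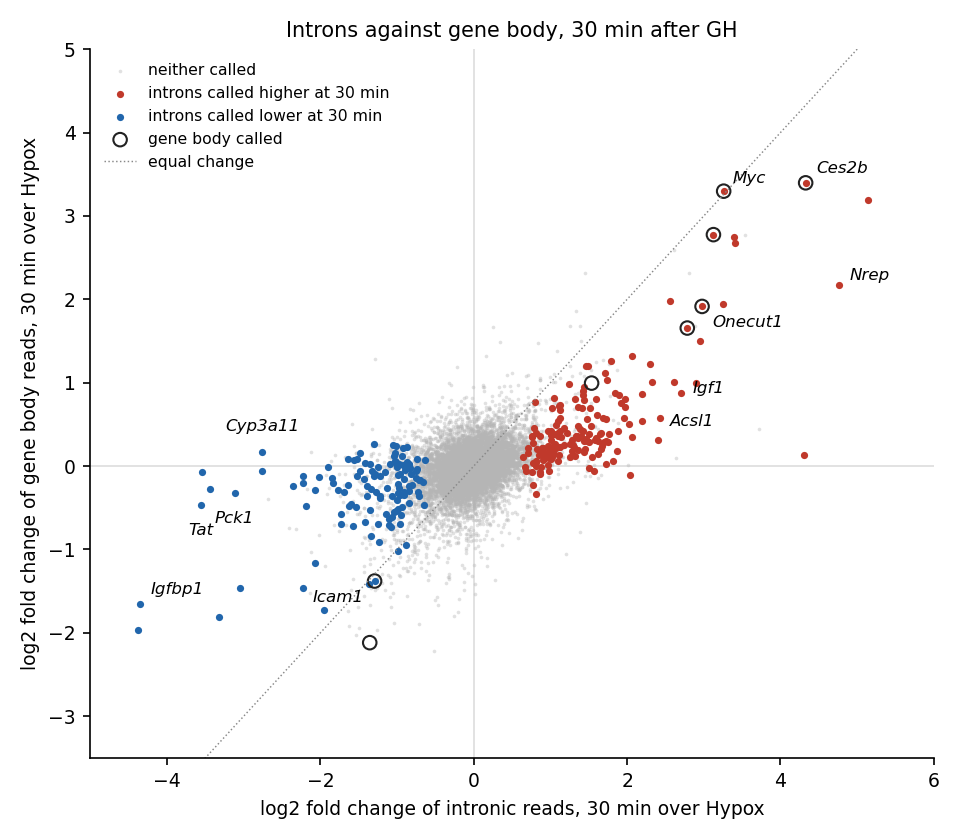
Each point is 1 of 11503 genes tested in introns and gene body, with the log2 fold change of intronic reads (30 min over Hypox) on the horizontal axis and that of gene body reads on the vertical axis; 1 gene lies outside the axes. Coloured points are called in introns, ringed points in the gene body, and the dotted line marks equal change. Of the genes called higher in introns, 155 of 168 lie above the horizontal zero line, against 27 of 122 called lower, and the gene body change exceeds the intronic one in 1 and 4 of them (0.595% and 3.28%, against 37.9% of all 11503 genes). A choice by introns favours large intronic changes and so lowers these 2 shares, which are given as a description.

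Gene body values of the genes called in introns are given as a description, since a choice by introns favours large intronic changes. Among 168 genes with higher introns and a tested gene body, the median gene body log2 fold change was 0.35, where their introns had 1.33, and it was above 0 in 155 of them (92.3%). Among 122 genes with lower introns the gene body median was -0.23, where introns had -1.15, and it was above 0 in 27 (22.1%). With the shallower 30 min library left out of the gene body values, 131 of the 168 and 42 of the 122 lay above 0, with medians of 0.21 and -0.12. Over all 11503 genes tested in both, the gene body log2 fold change was above 0 in 5600 (48.7%). Ces2b, Myc, Phlda1, Onecut1 and Aacs were called higher in introns and gene body, and Icam1 was called lower in both.

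The number of intronic calls depended on single libraries, and no called intronic change of a named gene turned its sign in any setting tried. With the deeper 30 min library left out 242 genes were higher and 202 lower, and with the shallower one left out 76 and 60. Leaving out the deeper Hypox library gave 48 and 40, and leaving out the shallower Hypox library gave 75 and 39. Of the 170 higher and 124 lower genes, 41 and 23 were called in each of these 4 fits. The shallower 30 min library lay further from Hypox in either direction: over the 168 genes with higher introns its intronic level exceeded that of the deeper 30 min library by a median of 0.30 on the log2 scale (132 genes), and over the 122 genes with lower introns the median difference was -0.15 (above 0 in 36). Between the shallower and the deeper Hypox library the same medians were 0.13 and 0.05. The split between the directions also moved with the scaling. By library totals alone, which shift the median of all genes by -0.12 on the log2 scale, 139 genes were higher and 199 lower (41.1% higher, against 57.8% with the intronic factors), and with the factors of the gene body reads 146 were higher and 178 lower (45.1%).

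Known targets of GH were among the genes whose introns rose. They were read on a list chosen, like all lists here, with earlier results of these data known. Of 14 tested genes on the list of GH and STAT5 targets and feedback genes, 5 rose in introns and 0 fell (1.39% and 1.01% of all genes tested), with a median log2 fold change of 0.49, against -0.02 over all genes tested. At an unadjusted p under 0.05 the counts were 7 and 0 (6.28% and 7.33% of all), and limma-voom called 5 and 0. Left out in turn, the 4 libraries gave 5 to 6 higher members, 5 without the shallower 30 min library. Cish and Socs2, feedback inhibitor genes of the SOCS family, rose in introns. Cish, whose protein blocks the receptor's STAT5 docking sites, had 4.53 and 8.37 intronic CPM at 30 min, against 0.195 and 1.1 in Hypox. Socs2, which dampens GH signalling in mice, had 2.19 and 6.39 intronic CPM at 30 min, against 0.195 and 0.346 in Hypox. In each gene both 30 min libraries lay above both Hypox libraries, and the log2 fold changes were 3.39 ± 0.51 (adjusted p = 0.0055) for Cish and 3.41 ± 0.43 (adjusted p = 0.00215) for Socs2. In the gene body neither passed, with 2.74 ± 0.42 (adjusted p = 0.0635) for Cish and 2.68 ± 0.56 (adjusted p = 0.213) for Socs2, and in Socs2 the 30 min libraries stood apart from each other, at 3.90 and 18.9 CPM. The difference between introns and gene body passed limma's test in neither gene, at 0.65 (adjusted p = 0.384) for Cish and 0.73 (adjusted p = 0.470) for Socs2. The remaining SOCS genes did not pass in introns or could not be tested there: Socs3 had a log2 difference of 0.39 ± 0.41 (adjusted p = 0.777), and Socs1 had intronic reads in Hypox alone.

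Igf1 introns held 281 and 289 intronic CPM at 30 min, against 28.7 and 65.9 in Hypox. Both 30 min values were far above Hypox, 6.54-fold by the fit (2.71 ± 0.31, adjusted p = 0.00122), while its gene body did not pass (log2 fold change 0.88 ± 0.27, adjusted p = 0.492). Igfals, which encodes the subunit that holds IGF1 in its large circulating complex, missed the threshold in introns at 1.86 ± 0.44 (adjusted p = 0.053). Onecut1, the gene of the liver transcription factor HNF6, had 70.9 and 94.9 intronic CPM at 30 min, against 8.24 and 12.9 in Hypox, a log2 difference of 2.98 ± 0.23 (adjusted p = 0.000138). Nrep, which lies at 3 locations in the table, had 23.8 and 32.2 intronic CPM at 30 min, against 0.530 and 1.57 in Hypox (4.76 ± 0.35, adjusted p = 0.000138). Keg1, whose promoter is shown above, had 151 and 193 intronic CPM at 30 min, against 22.8 and 23 in Hypox (2.90 ± 0.21, adjusted p = 0.000138), and in mm9 it spans chromosome 19, 12770280 to 12794386. Its libraries lay close together within each group, and the gene body was at 32.4 and 61.7 CPM at 30 min, against 22.9 and 21.8 in Hypox, without a call (adjusted p = 0.292). These intronic calls of Cish, Socs2, Igf1, Onecut1, Nrep and Keg1 held in each fit without 1 library, and that of Cish was lost with the Hypox and 30 min libraries alone (adjusted p = 0.0517). Bcl6, a repressor that GH is known to lower in liver, did not pass in introns (-0.22 ± 0.20, adjusted p = 0.736).

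**Figure D2:**
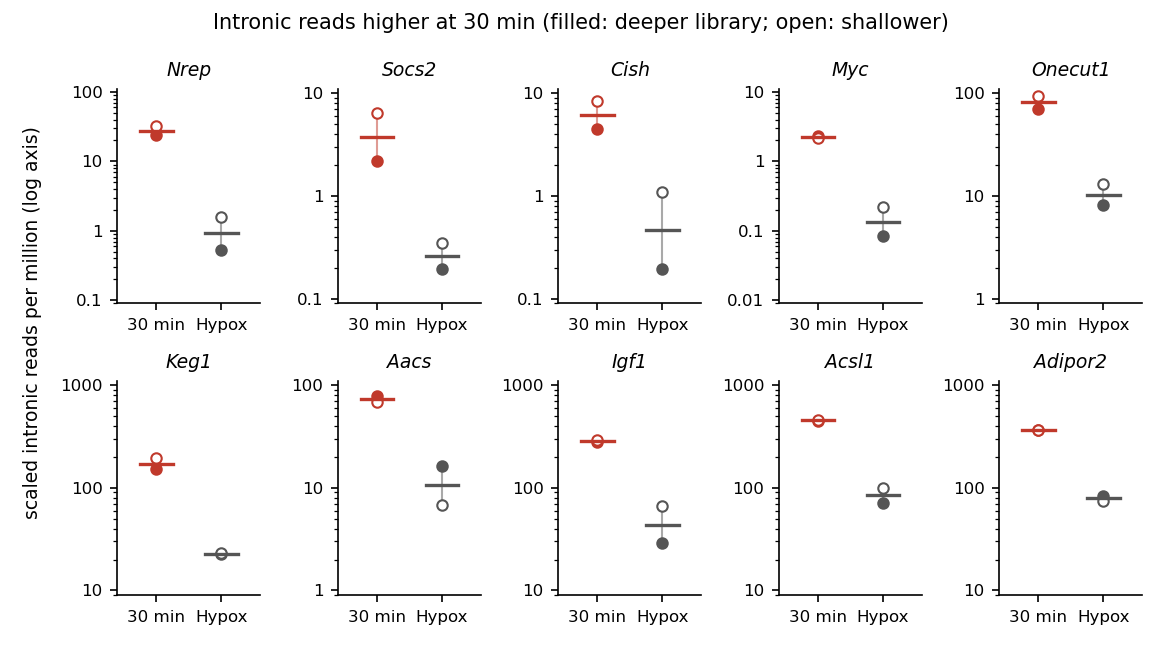
Scaled intronic CPM on a log axis for 10 genes called higher, with 30 min left of Hypox in each panel. Filled points are the deeper and open points the shallower library, and the bar is the geometric mean. In all 10 panels the 30 min points lie above the Hypox points.

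On the list of the receptor's own pathway, 1 of 18 tested genes rose in introns and 1 fell (1.39% and 1.01% of all), and the median log2 fold change was -0.05. The riser was Prlr, the receptor for prolactin, a close relative of GH, with 184 and 169 intronic CPM at 30 min, against 51.8 and 81.4 in Hypox (1.44 ± 0.22, adjusted p = 0.00593); its gene body did not pass (0.17 ± 0.14, adjusted p = 0.87), at 47.2 and 44.8 gene body CPM at 30 min, against 37.9 and 44.2 in Hypox. The gene that fell was Irs2, an adaptor that carries the insulin signal into the cell, with 17.7 and 19.6 intronic CPM at 30 min, against 41.3 and 38.9 in Hypox (-1.1 ± 0.19, adjusted p = 0.0135), although Irs2 overlaps another annotated gene and its reads are uncertain. Ghr, the GH receptor gene, had 1139 and 2043 intronic CPM at 30 min, against 633 and 1137 in Hypox and did not pass (0.85 ± 0.40, adjusted p = 0.394), nor did Stat5b (0.14 ± 0.20, adjusted p = 0.854). When 1 library was left out at a time, the calls of Prlr and Irs2 were lost with the deeper Hypox library left out (adjusted p = 0.0626 and 0.112). The call of Irs2 was lost with the shallower Hypox library left out (adjusted p = 0.0736).

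Immediate early genes are those that many stimuli turn on within minutes. Of 14 tested members Myc alone rose in introns and 2 fell (1.39% and 1.01% of all), with a median of -0.37. By limma's unadjusted p under 0.05, 2 were higher in introns and 5 lower (6.28% and 7.33% of all). Myc, the transcription factor that drives growth and ribosome synthesis, had 2.30 and 2.15 intronic CPM at 30 min, against 0.0838 and 0.220 in Hypox, and its gene body had 8.64 and 11.4 CPM at 30 min, against 0.632 and 1.32 in Hypox. The intronic and gene body changes were 3.26 ± 0.42 and 3.30 ± 0.33 on the log2 scale, and their difference did not pass its test (-0.04 ± 0.39, adjusted p = 0.983), except with a pseudocount of 1, where it was negative (adjusted p = 0.0383). The genes that fell were Nr4a1, an orphan nuclear receptor that hormones and cyclic AMP induce, and Maff. Nr4a1 had 0.906 and 0.226 intronic CPM at 30 min, against 7.62 and 18.4 in Hypox (-4.38 ± 0.53, adjusted p = 0.00184), with all 30 min values far below all Hypox values. Maff, a small Maf transcription factor, had 2.64 and 1.81 intronic CPM at 30 min, against 5.95 and 4.69 in Hypox (-1.23 ± 0.27, adjusted p = 0.0398). Egr1 had 1.93 and 0.679 intronic CPM at 30 min, against 0.112 and 0.535 in Hypox and did not pass (1.78 ± 0.62, adjusted p = 0.205), and Fos had too few intronic reads for a test. The gene body of Fos, at 6.14 and 1.75 CPM at 30 min, against 3.28 and 5.97 in Hypox, overlapped between the groups.

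Of 13 tested genes on the list of MAPK feedback genes, which includes Phlda1, 2 rose in introns and 0 fell (1.39% and 1.01% of all). The median was -0.22. By limma's unadjusted p under 0.05, 2 were higher in introns and 4 lower (6.28% and 7.33% of all). Dusp6 was not called in introns here, and in the authors' deposited intronic comparison it was lower (ratio 0.342, adjusted p = 0.016). Phlda1, a growth factor-induced gene, had 3.93 and 3.28 intronic CPM at 30 min, against 0.195 and 0.504 in Hypox (3.13 ± 0.36, adjusted p = 0.00122) and 60.2 and 83 gene body CPM at 30 min, against 9.05 and 11.6 in Hypox (2.78 ± 0.17, adjusted p = 0.000106). Spred1, an inhibitor of RAS signalling, had 35.8 and 39.98 intronic CPM at 30 min, against 20.5 and 22.5 in Hypox (0.81 ± 0.14, adjusted p = 0.0129). Of 27 tested ribosome biogenesis genes 8 were higher and 0 lower at an unadjusted p under 0.05 (6.28% and 7.33% of all). Their median was 0.36. By adjusted p, 1 rose and 0 fell (again beside 1.39% and 1.01%), the same counts as by limma-voom. The riser was Rrn3, the initiation factor that recruits RNA polymerase I to ribosomal DNA, with 10.2 and 11.3 intronic CPM at 30 min, against 6.06 and 5.42 in Hypox (0.89 ± 0.17, adjusted p = 0.0189). Odc1, which makes polyamines and is a known MYC target, also rose, with 4.68 and 4.86 intronic CPM at 30 min, against 1.40 and 1.35 in Hypox (1.72 ± 0.23, adjusted p = 0.00332), and so did Xbp1, a transcription factor of the secretory pathway, with 27.6 and 36.5 intronic CPM at 30 min, against 16.2 and 15.8 in Hypox (0.98 ± 0.19, adjusted p = 0.0198). Ces2b, a carboxylesterase gene, had 40 and 55 intronic reads at 30 min, against 1 and 0 in Hypox (adjusted p = 0.00265), and its reads may be shared with near-identical relatives. The calls of Myc, Phlda1, Nr4a1, Odc1 and Ces2b held without any 1 of the 4 libraries. Among the others, the calls of Spred1, Rrn3, Xbp1 and Maff were lost with any of 3 libraries left out, the shallower 30 min one (adjusted p = 0.0839, 0.123, 0.133 and 0.234), the deeper Hypox one (adjusted p = 0.121, 0.0839, 0.125 and 0.247) and the shallower Hypox one (adjusted p = 0.0596, 0.136, 0.127 and 0.109).

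Genes of fat metabolism were read on a list put together after the values were seen. Of 40 tested genes of fatty acid and triglyceride metabolism 8 rose in introns and 4 fell (1.39% and 1.01% of all genes), the median was 0.12, and the 8 were 6 to 9 when 1 library was left out. Acsl1, which activates long-chain fatty acids by joining them to coenzyme A, had 448 and 459 intronic CPM at 30 min, against 70.9 and 100.3 in Hypox (2.42 ± 0.24, adjusted p = 0.00045). Adipor2, the hepatic adiponectin receptor, had 366 and 362 intronic CPM at 30 min, against 83.7 and 74.9 in Hypox (2.20 ± 0.17, adjusted p = 0.000138), and it lies in mm9 on chromosome 6, 119303168 to 119367501. In both genes the 30 min libraries lay close together and far above Hypox. Aacs, which turns the ketone body acetoacetate into a lipid precursor, had 78.5 and 68.6 intronic CPM at 30 min, against 16.2 and 6.87 in Hypox (2.79 ± 0.34, adjusted p = 0.00191). Prkaa2, a catalytic subunit of the energy sensor AMPK, had 70.7 and 90.03 intronic CPM at 30 min, against 23.3 and 26.5 in Hypox (1.68 ± 0.16, adjusted p = 0.00045), and Abhd5, the coactivator of lipid droplet lipase, had 14 and 18.4 intronic CPM at 30 min, against 4.69 and 5.10 in Hypox (1.69 ± 0.19, adjusted p = 0.00113). The lipase genes Lipc and Lpl rose as well, with log2 fold changes of 1.48 ± 0.20 (adjusted p = 0.00309) and 1.5 ± 0.21 (adjusted p = 0.0046), as did Ehhadh of peroxisomal fatty acid oxidation (1.28 ± 0.18, adjusted p = 0.00355). The 4 genes that fell act in triglyceride synthesis and storage or in mitochondrial uptake of fatty acids. Dgat2, which completes triglyceride synthesis, had 18.8 and 11.6 intronic CPM at 30 min, against 62.8 and 48.9 in Hypox (-1.9 ± 0.22, adjusted p = 0.0013), and Cpt1a, which admits fatty acids to mitochondria, had 37.4 and 31.3 intronic CPM at 30 min, against 79.4 and 83.6 in Hypox (-1.25 ± 0.19, adjusted p = 0.00734). Lpin2, a phosphatidate phosphatase, and Plin2, a lipid droplet coat protein, had log2 fold changes of -0.99 ± 0.18 (adjusted p = 0.0142) and -0.97 ± 0.22 (adjusted p = 0.0463). Left out in turn, the libraries gave 1 to 5 lower members, and 1 to 3 unless the deeper 30 min library was the one left out; without the shallower 30 min library 8 were higher and 3 lower. Of the calls named with values, the call of Plin2 was lost with the shallower 30 min library left out (adjusted p = 0.244). The calls of Lpl, Ehhadh, Cpt1a, Lpin2 and Plin2 were lost with the deeper Hypox library left out (adjusted p between 0.0501 and 0.155). The calls of Cpt1a, Lpin2 and Plin2 were lost with the shallower Hypox library left out (adjusted p = 0.0611, 0.0866 and 0.25).

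Bile acid transport and complement each gave 2 risers, again on lists put together with the values known. Of 19 tested genes of bile acid synthesis and transport, Abcb11 and Slc10a1 rose and Abcc2 fell (1.39% and 1.01% of all), with a median of 0.02. Abcb11, the bile salt export pump of the canalicular membrane, had 64.8 and 162 intronic CPM at 30 min, against 21.9 and 28.5 in Hypox (2.03 ± 0.33, adjusted p = 0.00851). Slc10a1, which takes bile salts up from blood, had 15.5 and 43.6 intronic CPM at 30 min, against 5.64 and 6.65 in Hypox (2.07 ± 0.38, adjusted p = 0.0177). In both genes the 30 min libraries differed from each other by more than the Hypox libraries did, with the shallower one the higher. Abcc2, a canalicular exporter of conjugates, had 155 and 102 intronic CPM at 30 min, against 337 and 258 in Hypox (-1.23 ± 0.26, adjusted p = 0.033). Of 32 tested complement and coagulation genes 2 rose and 0 fell (1.39% and 1.01% of all), with a median of 0.06. C8b, a chain of the terminal complement complex, had 46.8 and 92.7 intronic CPM at 30 min, against 12 and 12.8 in Hypox (2.4 ± 0.25, adjusted p = 0.00082), and Cfi, a protease that curbs complement, had 72.2 and 86.4 intronic CPM at 30 min, against 45.3 and 40.7 in Hypox (0.88 ± 0.15, adjusted p = 0.0136). Of these, the calls of Abcc2 and Cfi were lost with the shallower 30 min library left out (adjusted p = 0.176 and 0.0839). The calls of Abcb11, Slc10a1, Abcc2 and Cfi were lost with the deeper Hypox library left out (adjusted p = 0.0999, 0.144, 0.23 and 0.0666). The calls of Slc10a1, Abcc2 and Cfi were lost with the shallower Hypox library left out (adjusted p = 0.0903, 0.0802 and 0.114).

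Genes that fasting and the transcription factor FOXO1 are known to turn on, and insulin to turn off, were called in introns only downward on the list used here. This list too was chosen with earlier results of these data known. Of 18 tested genes of the list of gluconeogenesis, glycogen and FOXO targets, 7 fell in introns (Pck1, Igfbp1, Fbp1, Tat, Sds, Irs2 and Ppp1r3c) and 0 rose, where 1.01% of all genes fell. The median log2 fold change of the list was -1.08, and limma-voom called 6 lower and 0 higher. At an unadjusted p under 0.05 the counts were 11 lower and 1 higher (7.33% and 6.28% of all). Leaving out 1 library gave 3 to 7 lower members, with 5 when it was the shallower one of 30 min and 3 when it was the shallower one of Hypox. Pck1, the gene of the committed enzyme of gluconeogenesis, had 9.70 and 5.43 intronic CPM at 30 min, against 58.4 and 69.7 in Hypox, 8.68-fold lower at 30 min by the fit (-3.12 ± 0.25, adjusted p = 0.000138). Igfbp1, a binding protein that holds IGF1 and that insulin represses, had 0.302 and 0.283 intronic CPM at 30 min, against 8.35 and 7.56 in Hypox (-4.36 ± 0.38, adjusted p = 0.000225). The groups were widely separated in both genes. Tat, which starts the breakdown of tyrosine, had 12.1 and 6.84 intronic CPM at 30 min, against 99.1 and 118 in Hypox, 11.8-fold lower (-3.56 ± 0.24, adjusted p = 0.000138). Fbp1, the bisphosphatase step of gluconeogenesis, had 109.7 and 88.8 intronic CPM at 30 min, against 190.4 and 217 in Hypox (-1.04 ± 0.20, adjusted p = 0.0216), and Ppp1r3c, which targets a phosphatase to glycogen, had a log2 difference of -1.69 ± 0.38 (adjusted p = 0.0477). G6pc and Ppargc1a, the final enzyme and a coactivator of gluconeogenesis, did not pass, with -1.29 ± 0.43 (adjusted p = 0.177) and -0.77 ± 0.30 (adjusted p = 0.259). In mm9 Pck1 lies on chromosome 2, 172978574 to 172984754 and Tat on chromosome 8, 112514336 to 112523704.

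No gene body among the 20 tested of this list was called by limma at 30 min, where the list's median was -0.18. By limma-voom 0 were called, and at an unadjusted p under 0.05 it was 2 higher and 3 lower (3.14% and 3.88% of all). Pck1 mRNA was at 304 and 187 gene body CPM at 30 min, against 261 and 342 in Hypox. Tat mRNA was at 349.8 and 191 gene body CPM at 30 min, against 329 and 391 in Hypox, and in both genes the groups overlapped. The difference between introns and gene body passed its own test, at -2.79 ± 0.18 (adjusted p = 1.15e-05) for Pck1 and -3.08 ± 0.17 (adjusted p = 3.69e-06) for Tat. The gene body of Igfbp1, at 5.92 and 5.67 CPM at 30 min, against 18.7 and 18.1 in Hypox, did not overlap between the groups and did not pass (-1.65 ± 0.39, adjusted p = 0.292).

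**Figure D3:**
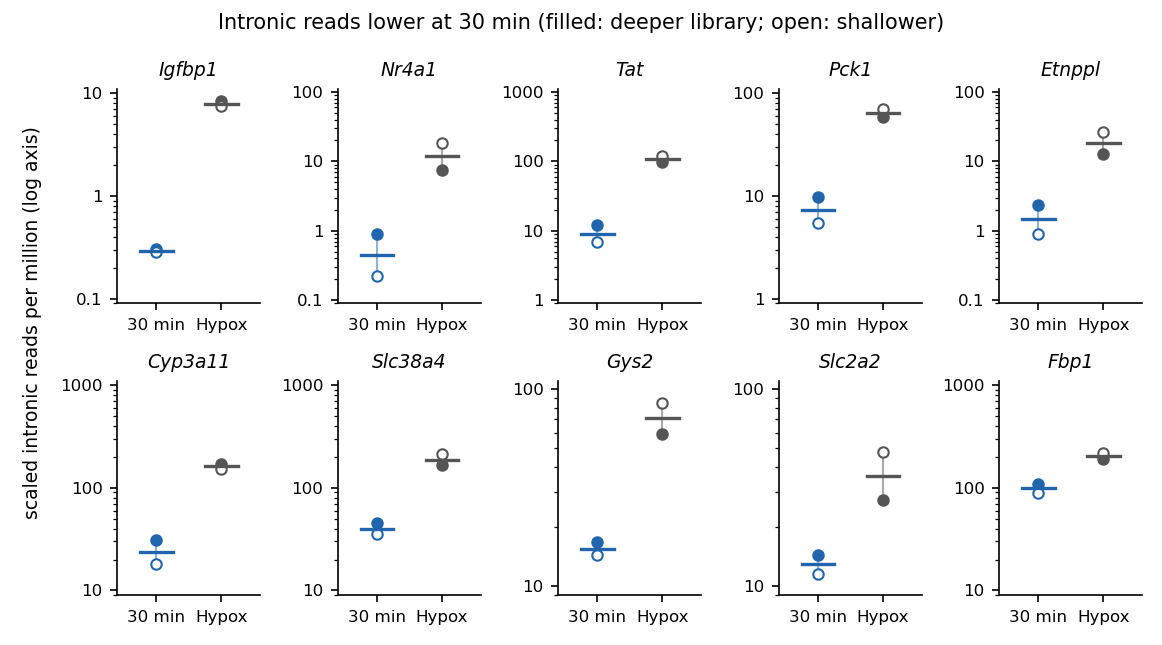
Scaled intronic CPM on a log axis for 10 genes called lower, with 30 min left of Hypox in each panel. Filled points are the deeper and open points the shallower library, and the bar is the geometric mean. In all 10 panels the 30 min points lie below the Hypox points.

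Glucose handling outside that list went several ways. Gys2, the liver's glycogen synthase, had 16.7 and 14.3 intronic CPM at 30 min, against 59.2 and 84.9 in Hypox (-2.19 ± 0.27, adjusted p = 0.00184), and Slc2a2, the glucose transporter GLUT2, had 14.4 and 11.5 intronic CPM at 30 min, against 27.4 and 48 in Hypox (-1.48 ± 0.23, adjusted p = 0.00735). Pygl, the glycogen phosphorylase of liver, rose, with a log2 fold change of 1.67 ± 0.28 (adjusted p = 0.0103). Sik1, a kinase whose gene cyclic AMP induces and whose product restrains gluconeogenic transcription, had 2.87 and 2.26 intronic CPM at 30 min, against 10.7 and 11.3 in Hypox (-2.07 ± 0.24, adjusted p = 0.00122). Of the calls on glucose genes, the call of Ppp1r3c was lost with the deeper 30 min library left out (adjusted p = 0.0741). The calls of Fbp1, Ppp1r3c, Slc2a2 and Pygl were lost with the shallower 30 min library left out (adjusted p = 0.119, 0.204, 0.0548 and 0.0836). The calls of Fbp1, Ppp1r3c and Pygl were lost with either of 2 libraries left out, the deeper Hypox one (adjusted p = 0.0979, 0.163 and 0.0991) and the shallower Hypox one (adjusted p = 0.152, 0.264 and 0.0611).

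Enzymes of amino acid breakdown and the urea cycle were read on a list put together after the values were seen. It shares Tat and Sds with the list above, and it includes Etnppl, which acts on phosphoethanolamine instead of an amino acid. Of 54 tested genes 11 fell in introns and 0 rose (1.01% and 1.39% of all), and limma-voom gave the same counts. At an unadjusted p under 0.05 it was 18 lower and 2 higher (7.33% and 6.28% of all). The median was -0.31, and no gene body of the 54 was called by limma or limma-voom. At an unadjusted p under 0.05, 3 gene bodies were higher and 2 lower (3.14% and 3.88% of all). Leaving out 1 library gave 2 to 15 lower members, with 5 when it was the shallower one of 30 min and 2 when it was the shallower one of Hypox. Cth, which makes cysteine from cystathionine, had 81.2 and 29.4 intronic CPM at 30 min, against 256 and 434 in Hypox (-2.77 ± 0.45, adjusted p = 0.00903). Etnppl, which breaks down phosphoethanolamine, had 2.38 and 0.905 intronic CPM at 30 min, against 12.7 and 26.2 in Hypox (-3.54 ± 0.42, adjusted p = 0.00152), and Sds, which deaminates serine, had 5.21 and 5.71 intronic CPM at 30 min, against 12.1 and 19.8 in Hypox (-1.49 ± 0.23, adjusted p = 0.00734). Oat of ornithine breakdown had 18.1 and 11.6 intronic CPM at 30 min, against 38 and 39.9 in Hypox (-1.42 ± 0.21, adjusted p = 0.00592). The others that fell were Arg1, the last enzyme of the urea cycle, Gnmt, Cdo1, Hal, Hpd and Aldh4a1, with log2 fold changes between -1.02 (Gnmt) and -0.73 (Aldh4a1). Slc38a4, an amino acid transporter of the hepatocyte membrane, had 45 and 35.3 intronic CPM at 30 min, against 166 and 212 in Hypox (-2.23 ± 0.18, adjusted p = 0.000156) and a gene body of 419 and 397 CPM at 30 min, against 439 and 503 in Hypox. Sds overlaps another annotated gene, so its reads are uncertain. Of these calls, the calls of Arg1 and Cdo1 were lost with the deeper 30 min library left out (adjusted p = 0.0763 and 0.0794). The calls of Arg1, Gnmt, Cdo1, Hal, Hpd and Aldh4a1 were lost with the shallower 30 min library left out (adjusted p between 0.102 and 0.227). The calls of Oat, Gnmt, Hal, Hpd and Aldh4a1 were lost with the deeper Hypox library left out (adjusted p between 0.0568 and 0.196). The calls of Cth, Sds, Oat, Arg1, Gnmt, Cdo1, Hal, Hpd and Aldh4a1 were lost with the shallower Hypox library left out (adjusted p between 0.0583 and 0.264).

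Some called genes rested on few reads or on unequal libraries. Ces3b, another carboxylesterase gene, had 7.28 and 57.3 intronic CPM at 30 min, against 0.140 and 1.32 in Hypox (5.14 ± 0.86, adjusted p = 0.0102), with the 30 min libraries far apart. Ugt2b38 and Adh6-ps1, both under 0.5 FPKM in the gene body, had 23 and 46 and 21 and 80 intronic reads at 30 min, against 0 and 6 and 5 and 6 in Hypox (adjusted p = 0.0202 and 0.0372). Il31ra, whose intronic values are given above, was called at an adjusted p of 0.0267 with 0 gene body reads. Of these 4, the calls of Ugt2b38, Adh6-ps1 and Il31ra were lost with the shallower 30 min library left out (adjusted p = 0.149, 0.171 and 0.146). The calls of Ces3b, Ugt2b38, Adh6-ps1 and Il31ra were lost with the deeper Hypox library left out (adjusted p = 0.0979, 0.161, 0.198 and 0.103). The calls of Adh6-ps1 and Il31ra were lost with the shallower Hypox library left out (adjusted p = 0.145 and 0.181).

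The cytochrome P450 gene Cyp3a11, a drug- and steroid-oxidising enzyme, had 31.2 and 18 intronic CPM at 30 min, against 171 and 151 in Hypox (-2.76 ± 0.23, adjusted p = 0.000191), and Cyp2a5 had 1.40 and 0.735 intronic CPM at 30 min, against 11.9 and 12.3 in Hypox (-3.44 ± 0.28, adjusted p = 0.000156). Cyp2a4 had 0.377 and 0.396 intronic CPM at 30 min, against 5.98 and 3.78 in Hypox (-3.32 ± 0.34, adjusted p = 0.000724). Each of the 3 belongs to a family of close copies, between which reads may be shared, and each held without any 1 library. Trp53inp1, a stress-induced gene of the p53 pathway, had 6.42 and 4.41 intronic CPM at 30 min, against 32.9 and 23.4 in Hypox (-2.36 ± 0.22, adjusted p = 0.000385) and held likewise, while its gene body, at 95.7 and 36.6 CPM at 30 min, against 61.7 and 79.6 in Hypox, overlapped between the groups.

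Targets of NF-kB, the main driver of inflammatory transcription, leaned downward with few calls. Of 16 tested members 2 fell in introns and 0 rose (1.01% and 1.39% of all), with a median of -0.62. Of 22 tested in the gene body 2 fell and 0 rose (0.0152% and 0.0532% of all), with a median of -0.68. Without the shallower 30 min library 0 fell in introns and 2 in the gene body. At an unadjusted p under 0.05, 8 of the 16 were lower in introns (7.33% of all) and 14 of the 22 in the gene body (3.88%). In either measure 0 were higher (6.28% and 3.14% of all), and limma-voom called 2 and 1 lower and 0 higher. Icam1, a leukocyte adhesion molecule, had 3.51 and 3.45 intronic CPM at 30 min, against 7.06 and 10.6 in Hypox (-1.29 ± 0.27, adjusted p = 0.0351), and Bcl3, a nuclear partner of NF-kB, had 5.66 and 6.22 intronic CPM at 30 min, against 14.4 and 16.5 in Hypox (-1.37 ± 0.25, adjusted p = 0.0157). The gene body of Icam1 had 5.70 and 4.98 CPM at 30 min, against 15 and 13.1 in Hypox (-1.38 ± 0.14, adjusted p = 0.00488), and the chemokine gene Ccl2 had 0.331 and 0.530 gene body CPM at 30 min, against 2.13 and 2.20 in Hypox (-2.12 ± 0.28, adjusted p = 0.0246). The difference between introns and gene body of Icam1 was 0.09 ± 0.29 (adjusted p = 0.954). Of the intronic calls, the call of Icam1 was lost with the deeper 30 min library left out (adjusted p = 0.0695). The calls of Icam1 and Bcl3 were lost with any of 3 libraries left out, the shallower 30 min one (adjusted p = 0.139 and 0.0596), the deeper Hypox one (adjusted p = 0.0611 and 0.0839) and the shallower Hypox one (adjusted p = 0.247 and 0.12). In the gene body, the calls of Icam1 and Ccl2 were lost with the deeper Hypox library left out (adjusted p = 0.0847 and 0.284). The call of Ccl2 was lost with the shallower Hypox library left out (adjusted p = 0.115).

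Markers of other liver cells were read as lists, of which that of Kupffer cells gave 1 call. Marco, a scavenger receptor of Kupffer cells, the resident macrophages of the liver, fell in introns, with 0.302 and 1.36 intronic CPM at 30 min, against 6.23 and 6.27 in Hypox (-3.05 ± 0.45, adjusted p = 0.00537), and it was the 1 call among 9 tested Kupffer cell markers (1.01% of all genes fell), whose median was 0.03. The summed gene body level of the 10 Kupffer cell markers was 102 and 88.1 CPM at 30 min, against 86.6 and 109 CPM in Hypox, so the groups overlapped. Outside the marker lists, and chosen after its value was seen, Aoah, which inactivates bacterial lipopolysaccharide, fell in introns by 1.24 ± 0.17 on the log2 scale (adjusted p = 0.00358), as did Pik3ap1, an adaptor of the kinase PI3K, by 1.08 ± 0.16 (adjusted p = 0.00537). The 9 neutrophil markers summed to 4.71 and 6.31 CPM at 30 min, against 6.87 and 7.48 CPM in Hypox, with Elane at 0 in the 4 libraries. The 7 red blood cell markers, at 88.5 and 119 CPM at 30 min, against 87.2 and 70.4 CPM in Hypox, had both 30 min values above both Hypox values. The margin was narrow, 88.5 against 87.2 CPM, and 17.8% of all gene bodies tested were separated upward in this way. Of 5 red blood cell markers tested in the gene body, 0 were called. The part of these cells in the values was not tested, and in bulk liver fewer cells of a type and less RNA per cell cannot be told apart. Of these 3 genes, the call of Marco was lost with the deeper Hypox library left out (adjusted p = 0.0583). The calls of Marco and Pik3ap1 were lost with the shallower Hypox library left out (adjusted p = 0.0516 and 0.0578).

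Clock and hormone-responsive regulators changed in a few members only. Of 17 tested circadian clock genes 3 fell in introns and 0 rose (1.01% and 1.39% of all), with a median of -0.40. Leaving out 1 library gave 0 to 4 lower members, 0 without either Hypox library and 1 without the shallower 30 min library. Limma-voom called 3 lower and 0 higher. At an unadjusted p under 0.05 the clock list had 8 lower and 2 higher (7.33% and 6.28% of all). Per1, a repressor arm gene that glucocorticoids and cyclic AMP also induce, had 2.19 and 1.30 intronic CPM at 30 min, against 6.39 and 4.63 in Hypox (-1.63 ± 0.33, adjusted p = 0.0269). Dbp, an output factor of the clock, and Cry2, of the repressor arm, had log2 fold changes of -1.11 ± 0.18 (adjusted p = 0.00905) and -0.98 ± 0.17 (adjusted p = 0.0128), and both overlap another annotated gene. Of 12 tested glucocorticoid and stress genes Tat and Per1 fell and 0 rose (1.01% and 1.39% of all), and the glucocorticoid target Fkbp5 had 9.47 and 18.3 intronic CPM at 30 min, against 5.39 and 7.05 in Hypox without passing (1.08 ± 0.32, adjusted p = 0.126). Of 16 tested liver transcription factors Onecut1 and Foxa1 rose and Hnf4a fell (1.39% and 1.01% of all). Foxa1, a pioneer factor that opens liver enhancers, had 1.51 and 1.47 intronic CPM at 30 min, against 0.447 and 0.283 in Hypox (1.80 ± 0.34, adjusted p = 0.0189), and Hnf4a, a master regulator of hepatocyte identity, had 34.5 and 31.8 intronic CPM at 30 min, against 70.7 and 54.7 in Hypox (-0.91 ± 0.17, adjusted p = 0.0183). Among 8 tested Wnt genes and 9 tested heat shock genes limma called 0 in introns, with medians of -0.32 and 0.35. Limma-voom called 0 as well. At an unadjusted p under 0.05 the Wnt genes gave 1 higher and 2 lower (6.28% and 7.33% of all) and the heat shock genes 0. Of the regulators, the call of Foxa1 was lost with the deeper 30 min library left out (adjusted p = 0.0543). The calls of Per1, Cry2, Foxa1 and Hnf4a were lost with the shallower 30 min library left out (adjusted p = 0.168, 0.0963, 0.104 and 0.101). The calls of Per1, Dbp, Cry2, Foxa1 and Hnf4a were lost with the deeper Hypox library left out (adjusted p between 0.058 and 0.204). The calls of Per1, Dbp, Cry2 and Foxa1 were lost with the shallower Hypox library left out (adjusted p = 0.074, 0.0852, 0.107 and 0.136).

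**Figure D4:**
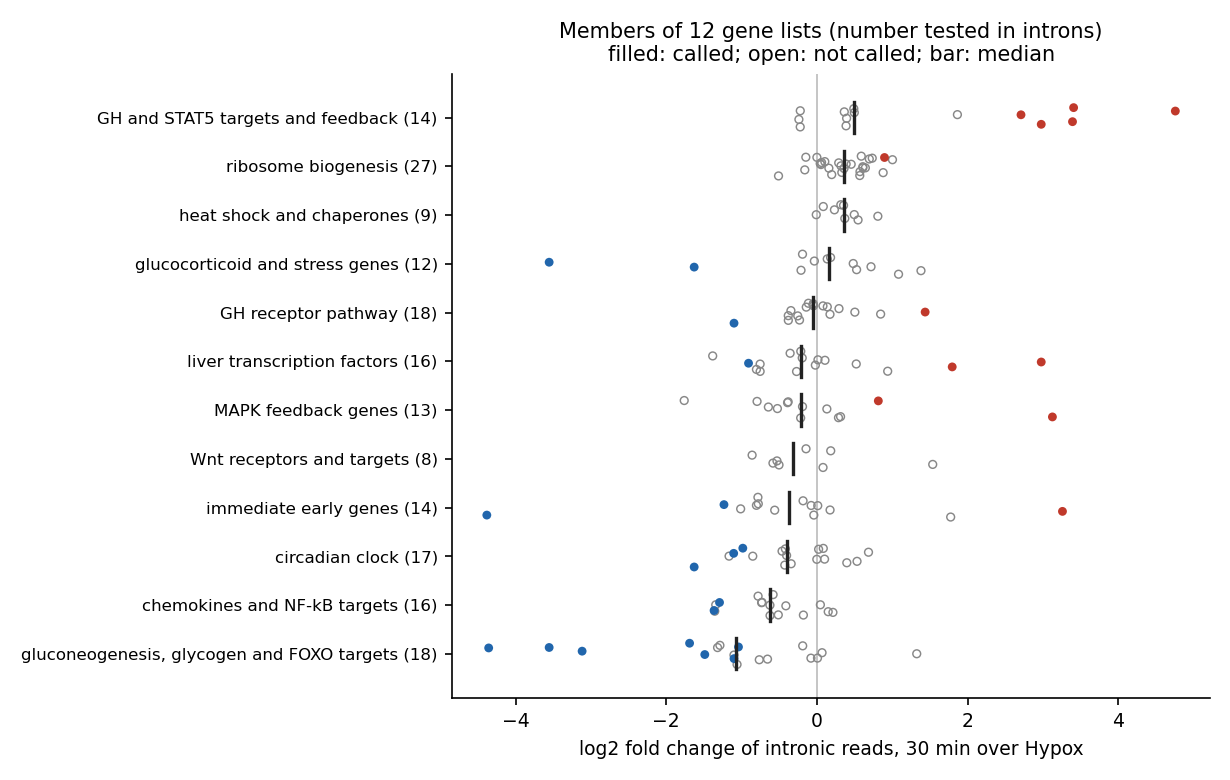
Intronic log2 fold changes (30 min over Hypox) of the tested members of 12 gene lists, 1 row per list with the number tested in brackets. Filled points are called, open points are not, and the bar is the median. The list of gluconeogenesis, glycogen and FOXO targets has 7 filled points below 0 and a median of -1.08, and that of GH and STAT5 targets has 5 filled points above 0 and a median of 0.49.

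Some intronic calls were also lost in settings that left out no 1 library. With the Hypox and 30 min libraries alone, Abcb11, Abcc2, Adh6-ps1, Aldh4a1, Arg1, Cdo1, Ces3b, Cfi, Fbp1, Foxa1, Gnmt, Hal, Hnf4a, Hpd, Il31ra, Maff, Per1, Plin2, Rrn3, Slc10a1, Slc2a2, Spred1, Ugt2b38 and Xbp1 missed the threshold (adjusted p between 0.0517 and 0.139). With no filter on low reads, Abcc2, Adh6-ps1, Aldh4a1, Gnmt, Hal, Hpd, Icam1, Il31ra, Maff, Plin2 and Ppp1r3c missed the threshold (adjusted p between 0.0531 and 0.0958). With at least 20 reads asked of both libraries of a group, Gnmt missed the threshold (adjusted p = 0.0506). With a pseudocount of 1, Adh6-ps1, Il31ra and Ugt2b38 missed the threshold (adjusted p = 0.0974, 0.0631 and 0.0974). With a pseudocount of 0.5, Adh6-ps1 and Ugt2b38 missed the threshold (adjusted p = 0.0697 and 0.0522). By library totals alone, Rrn3 missed the threshold (adjusted p = 0.0541). By limma-voom, Adh6-ps1, Ces3b, Il31ra, Ppp1r3c and Ugt2b38 missed the threshold (adjusted p between 0.0847 and 0.415).

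Few gene bodies were called at 30 min, and with 2 pools per group a missing call does not show an unmoved gene. Of the 7 higher genes, 5 were also called in introns, and the remaining 2 were Wnt receptor genes. Fzd7 had 0 intronic reads in these libraries, so its introns could not be called. Its gene body was at 12.2 and 21.7 CPM at 30 min, against 4.86 and 5.22 in Hypox (1.67 ± 0.23, adjusted p = 0.0292). Fzd4 had 19 and 19.8 gene body CPM at 30 min, against 9.71 and 9.65 in Hypox (1.00 ± 0.12, adjusted p = 0.0165). The introns of Fzd4 did not pass (1.54 ± 0.51, adjusted p = 0.179). Onecut1 had 11.2 and 19.3 gene body CPM at 30 min, against 3.82 and 3.83 in Hypox (1.91 ± 0.21, adjusted p = 0.0078) and Aacs had 23 and 36.7 gene body CPM at 30 min, against 11.5 and 7.26 in Hypox (1.66 ± 0.24, adjusted p = 0.0423). Ces2b had 30 and 60 gene body reads at 30 min, against 2 and 4 in Hypox (adjusted p = 0.0165). Of the 7, Phlda1 alone kept its call in each of the 4 fits without 1 library. Of the rest, the calls of Aacs, Fzd7 and Fzd4 were lost with either of 2 libraries left out, the shallower 30 min one (adjusted p = 0.154, 0.083 and 0.13) and the shallower Hypox one (adjusted p = 0.119, 0.0906 and 0.0799). The calls of Ces2b, Myc, Onecut1, Aacs, Fzd7 and Fzd4 were lost with the deeper Hypox library left out (adjusted p between 0.0507 and 0.293). Without 1 library, 1 to 30 gene bodies were higher and 0 to 8 lower. With the Hypox and 30 min libraries alone, Ces2b, Onecut1, Aacs, Fzd7, Fzd4 and Ccl2 missed the threshold (adjusted p between 0.0623 and 0.18). With no filter on low reads, Ces2b, Aacs, Fzd7 and Ccl2 missed the threshold (adjusted p = 0.0525, 0.097, 0.073 and 0.097). With at least 20 reads asked of both libraries of a group, Aacs missed the threshold (adjusted p = 0.0562). With a pseudocount of 1, Ces2b missed the threshold (adjusted p = 0.176). With a pseudocount of 0.5, Ces2b missed the threshold (adjusted p = 0.104). By limma-voom, Ces2b, Aacs, Fzd7 and Ccl2 missed the threshold (adjusted p = 0.35, 0.0598, 0.0566 and 0.0661).

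The difference between introns and gene body was tested in its own right for 11503 genes, of which 94 (0.817%) had introns that changed upward relative to the gene body and 86 (0.748%) downward. Among genes at 0.5 FPKM or more these were 92 and 84. Over all genes 30 passed upward and 23 downward when the shallower 30 min library was dropped. Of the 168 genes with higher introns 75 passed this test in the same direction, and of the 122 with lower introns 52 did. The intronic reads that chose these genes also enter the difference and favour the same direction, so these counts are a description. Upward, Nrep had a relative log2 change of 2.58 ± 0.50 (adjusted p = 0.0256), Abcb11 2.14 ± 0.29 (adjusted p = 0.00318), C8b 2.09 ± 0.17 (adjusted p = 0.000103), Keg1 1.9 ± 0.21 (adjusted p = 0.000929), Acsl1 1.85 ± 0.19 (adjusted p = 0.000845) and Igf1 1.83 ± 0.34 (adjusted p = 0.0233). Downward, Cyp2a5 had -3.17 ± 0.28 (adjusted p = 0.000182), Cyp3a11 -2.93 ± 0.21 (adjusted p = 3.65e-05) and Slc38a4 -2.03 ± 0.17 (adjusted p = 0.000158). Itih5, of a family of plasma protease inhibitor chains, passed upward, at 2.18 ± 0.31 (adjusted p = 0.00407), with neither measure passing by itself, at 1.39 ± 0.55 (adjusted p = 0.274) in introns and -0.79 ± 0.35 (adjusted p = 0.69) in the gene body. Lars2 was called downward at -6.18 ± 1.18 (adjusted p = 0.024) with the high exonic reads of the shallower 30 min library described above, while its introns were at 7.74 and 9.27 intronic CPM at 30 min, against 7.82 and 9.04 in Hypox. The calls of C8b, Keg1, Acsl1, Cyp2a5, Cyp3a11 and Slc38a4 held without any 1 library. Of the others, the calls of Nrep and Igf1 were lost with the deeper 30 min library left out (adjusted p = 0.137 and 0.0955). The calls of Nrep and Lars2 were lost with the shallower 30 min library left out (adjusted p = 0.0775 and 0.182). The calls of Nrep, Abcb11, Igf1, Itih5 and Lars2 were lost with the deeper Hypox library left out (adjusted p between 0.0693 and 0.234). The call of Lars2 was lost with the shallower Hypox library left out (adjusted p = 0.141). With the factors of the gene body reads applied to introns as well, 77 genes passed upward and 125 downward (38.1% upward, against 52.2%), and by library totals alone 77 and 123 (38.5%). With the Hypox and 30 min libraries alone, Nrep missed the threshold (adjusted p = 0.0586). With no filter on low reads, Nrep, Abcb11, Igf1, Itih5 and Lars2 missed the threshold (adjusted p between 0.0826 and 0.2).

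Which gene bodies followed was read from the 90 and 240 min groups, which share the Hypox libraries with the 30 min comparison, so the values are given side by side as a description. Of the 170 genes with higher introns at 30 min, gene bodies were called higher in 5 at 30 min, 46 at 90 min and 74 at 240 min, where 0.0532%, 0.63% and 5.72% of all gene bodies tested were. Their median gene body log2 fold change was 0.35, 0.70 and 0.62 at 30, 90 and 240 min. Of the 124 genes with lower introns, gene bodies were called lower in 1, 7 and 50 (0.0152%, 0.213% and 5.54% of all), with medians of -0.23, -0.27 and -0.53. Introns of the same genes went another way in time. The higher group was still called higher in introns in 148 of 170 at 90 min and in 42 at 240 min (3.27% and 4.94% of all), and 6 were called lower by 240 min. Its intronic median was 1.33, 1.27 and 0.38. Introns of the lower group were called lower in 97 of 124 at 90 min and 67 at 240 min (4.31% and 6.23% of all), with medians of -1.15, -1.15 and -0.79, and at 240 min 3 were called higher in introns and 3 in the gene body. Of the 76 higher and 60 lower genes called without the shallower 30 min library, gene bodies were called in the same direction in 22 and 5 at 90 min and in 35 and 23 at 240 min. In 58 of the 170 and 19 of the 124 the gene body was called at a later time in the same direction while the introns were not called in it at 240 min. In 80 and 71 the gene body was called in that direction at neither later time. The same joint counts were not made over all genes tested, so whether they exceed the share of all genes cannot be read from them.

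Single genes showed these courses. Keg1, Onecut1 and Igf1 stayed high in introns, at 2.44 ± 0.21, 2.78 ± 0.23 and 2.14 ± 0.31 on the log2 scale at 240 min, and their gene bodies stood at 2.19 ± 0.23, 3.30 ± 0.21 and 2.09 ± 0.27 by then (adjusted p = 0.00109, 7.37e-05 and 0.0022). Adipor2 and Abhd5 introns, at 1.89 ± 0.17 and 2.62 ± 0.19 at 90 min, were back at -0.20 ± 0.17 and -0.08 ± 0.19 at 240 min, when their gene bodies were called higher at 0.87 ± 0.17 (adjusted p = 0.0107) and 1.48 ± 0.19 (adjusted p = 0.00218). Myc was called in both measures at 30 and 90 min and in neither at 240 min, with gene body log2 fold changes of 3.30 ± 0.33, 3.18 ± 0.33 and 1.03 ± 0.33 over the 3 times, the last without a call (adjusted p = 0.0722). Among genes with lower introns, Tat had gene body log2 fold changes of -0.47 ± 0.23, -0.93 ± 0.23 and -1.11 ± 0.23, called at 240 min (adjusted p = 0.0138). Slc38a4 and Slc2a2 gene bodies were also called lower at 240 min, at -1.01 ± 0.12 (adjusted p = 0.00181) and -0.95 ± 0.13 (adjusted p = 0.00334). Igfbp1 was called in the gene body at 90 min already (-2.73 ± 0.39, adjusted p = 0.013). The gene body of Cyp3a11 did not follow, with -0.12 ± 0.18 (adjusted p = 0.72) at 240 min, while its introns were still at -3.12 ± 0.23 (adjusted p = 0.00018). Pck1 and Etnppl gene bodies were not called at any time, with -0.67 ± 0.22 (adjusted p = 0.0733) and 0.01 ± 0.22 (adjusted p = 0.99) at 240 min.

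**Figure D5:**
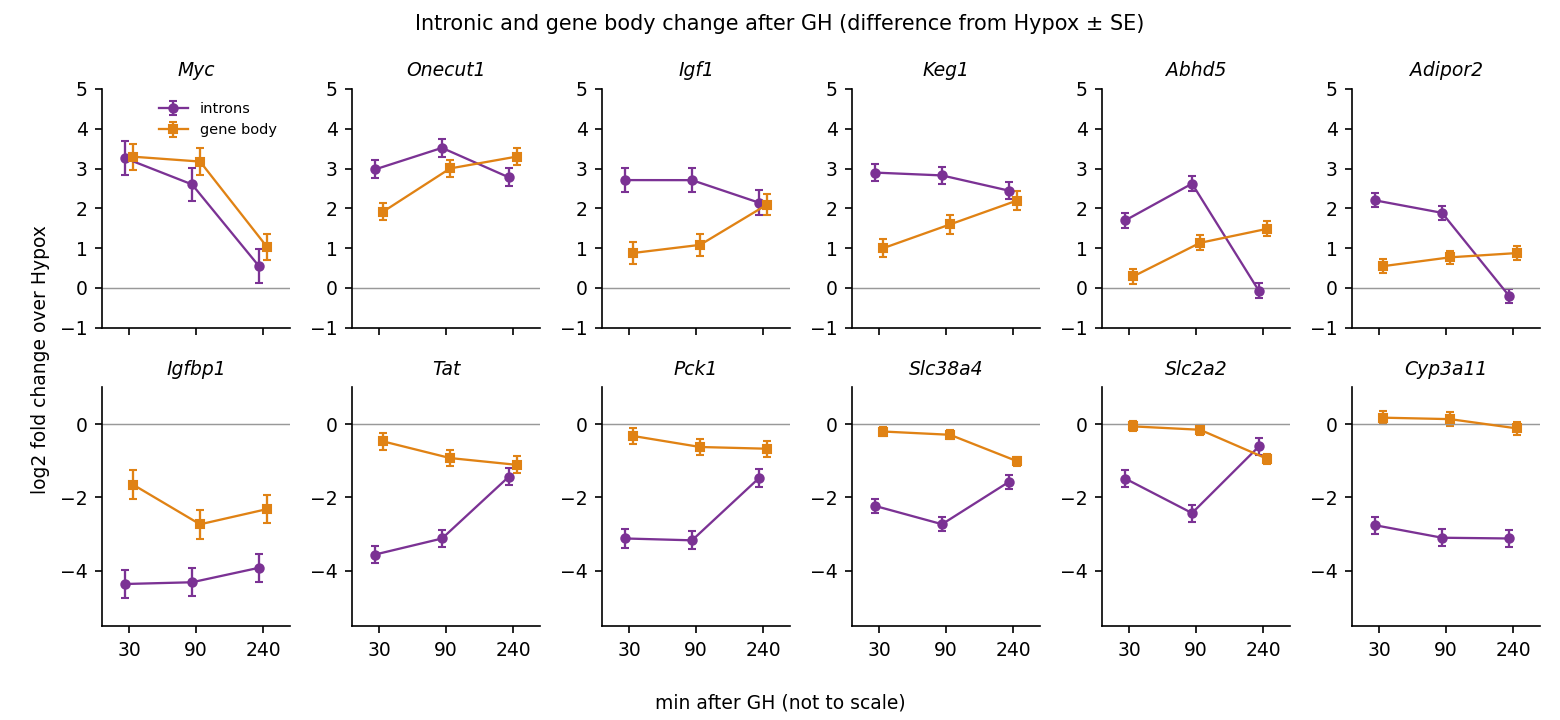
Log2 fold change over Hypox ± SE of intronic (circles) and gene body (squares) reads at 30, 90 and 240 min, with times evenly spaced, for 6 genes with higher introns (top row) and 6 with lower introns (bottom row). At 30 min the gene body lies nearer to 0 than the introns in all panels but that of Myc, where the values are 3.26 in introns and 3.30 in the gene body. At 240 min the squares of Keg1, Igf1, Abhd5 and Adipor2 lie further from 0 than at 30 min, and those of Cyp3a11 stay near 0.

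Features of the called genes are given as a description. The 134 higher genes at a single location had a median span of 29.4 kb and the 104 lower genes 23.3 kb, against 24.5 kb over all 10167 tested genes at a single location. Spans over 100 kb were held by 9 higher genes (6.72%) and 2 lower genes (1.92%), against 12.9% of all. Per length, the median intronic level in Hypox, as the authors' mean FPKM, was 0.306 for higher and 0.928 for lower genes, against 0.190 over all tested genes. The Hypox reads behind this level also entered the intronic test, so the choice of genes by that test shapes these medians.

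The authors' deposited table gives its own intronic comparison, with 214 genes higher (1.29%) and 234 lower (1.41%) at an adjusted p under 0.05 among 16607 with intronic values. Of the 170 higher and 124 lower genes, 154 and 108 were called there in the same direction, which is 72.0% and 46.2% of the authors' calls. For the gene body the authors' deposited table has 46 higher (0.258%) and 59 lower (0.331%) of 17834 genes, the 9 calls given here among them. In the authors' deposited table Cish had an intronic ratio of 10.02 (adjusted p = 1.64e-07) and Igf1 of 6.06 (adjusted p = 2.46e-10), and Pck1 and Tat stood at 0.119 and 0.0881. Some gene bodies without a call here were called there. Cish had a gene body ratio of 7.44 (adjusted p = 5.49e-07), Socs2 of 9.01 (adjusted p = 7.04e-06) and Nrep of 5.01 (adjusted p = 1.49e-05). Keg1 stood at 2.11 (adjusted p = 0.0198) and Igfbp1 at 0.316 (adjusted p = 2.24e-13). The gene body of Igf1 was not called there either, at 1.99 (adjusted p = 0.141).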

How the data were processed

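Liver total RNA, partly depleted of ribosomal RNA, was sequenced from strand-specific libraries, per the labels. The submitters' processing notes name TopHat2, featureCounts, edgeR and build mm9; versions, the use of strand in counting and the way p-values were adjusted are not given in the sources used here, so overlapping genes and near-identical families are uncertain. The authors deposited, per group of 2 libraries, the mean FPKM of the gene body and a signal over introns in the same unit, with a ratio and an adjusted p-value per comparison. These units called for other tests than counts, so whole reads per library were recovered by arithmetic from the 10 and 12 decimals: all 18359 gene body and 17098 intronic values above 0 came out whole (14441 single-location and 2657 multi-location genes), and 37 genes fitted more than 1 length. The recovery and the test were checked on simulated data. CPM were scaled by median-of-ratios factors (genes with a mean of 50 reads or more; 0.916 to 1.05 for exonic and 0.859 to 1.07 for intronic reads). Genes with at least 10 reads in 2 libraries were fitted as log2(CPM + 0.1) with limma 3.58.1 (R 4.3.3; trend, group as the only term, 4 residual and 6.51 to 8.04 prior degrees of freedom; median standard error 0.20 in gene bodies and 0.24 in introns), for introns, gene bodies and their difference. An exact permutation test of 2 against 2 cannot go below 0.333 and was not used. Fold changes on this scale understate those of low genes. Named genes are the 12 largest called changes per direction (all where fewer; at least 0.5 CPM), 5 per direction of the difference and of the authors' intronic comparison, 3 per list, and a fixed set of GH genes; those of the 4 lists added later, and Sik1, Lipc, Lpl, Gys2, Slc2a2, Odc1, Xbp1, Pygl, Aoah, Pik3ap1, Fbp1, Sds, Foxa1, Ppp1r3c, G6pc, Ppargc1a and Rn45s, were chosen after their values were seen. The members and all lists were chosen with earlier results of these data known.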

Additional observations from a re-analysis of the deposited data

How the results depend on the processing

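No paired analysis was possible because the recovered libraries carry no pool number. Introns gave 170 higher and 124 lower genes. With the Hypox and 30 min libraries alone it was 86 and 70, library totals alone gave 199 lower, the authors' deposited p-values gave 234 lower, and leaving out 1 library gave 48 to 242 higher and 39 to 202 lower. Gene bodies gave 7 and 2, against 4 and 1 with no filter on low reads and by limma-voom, 3 and 4 with those libraries alone, 46 and 59 by the authors' deposited p-values, and 1 to 30 and 0 to 8 without 1 library. Introns over gene body gave 94 and 86, against 11 and 14 with no filter (16091 genes tested), 149 lower with a pseudocount of 1, and 13 to 72 and 18 to 89 without 1 library; limma-voom was not run for it. The cause was not tested. Phlda1 reversed there with a pseudocount of 1, at -0.90 (adjusted p = 0.0485) against 0.35. Over named genes and settings, 1057 intronic values kept direction and side of the threshold, 123 fell below it and 11 passed it (gene body 1201, 32 and 17). A left-out library leaves a single sample in its group, which is assumed to vary like the other groups. Intervals from 2 pools are wide, and depth limits genes with few intronic reads.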
